A study of Mus musculus with 2 samples.

Results

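The miRNAs described here come from the Dlk1-Dio3 imprinted locus on mouse chromosome 12, and their members are 40 mature miRNAs fixed by name out of the 1915 distinct mature miRNAs listed for each library. They derive from 35 precursors and comprise 26 3p arms and 14 5p arms. Of the 40, 13 belong to the group at Rtl1 and Rian (miR-127, miR-136, miR-337, miR-370, miR-431, miR-433, miR-434, miR-540 and miR-665), and 27 to the group that runs from miR-379 to miR-410 at Mirg. Small RNA was sequenced in 1 library of exosomes from parental CT26 cells and 1 library of exosomes from CT26-SDCSCs. CT26 is an established colorectal carcinoma line of Balb/C mice, and SDCSCs are the spheroids expanded from it over 2 weeks in serum-free DMEM/F12 with N2 supplements and the growth factors bFGF and EGF, both at 10 ng/ml. The SDCSC exosomes were collected from spheroid medium from 2 weeks of culture onward. The parental line was grown in complete DMEM, and its exosomes were collected in medium prepared with exosome-depleted FBS. Both cultures were held at 37 °C and 5% CO2, and the vesicles were purified by ultracentrifugation. Cell state and culture medium changed together between the libraries, so they cannot be told apart, and no library was repeated.

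The Dlk1-Dio3 locus is expressed according to the parent of origin. Dlk1, Rtl1 and Dio3 are read from the paternal allele, whereas the maternal allele gives a series of noncoding RNAs, Meg3, the antisense transcript of Rtl1, Rian and Mirg, from which the miRNAs are processed. These miRNAs are known mainly from the embryo, the placenta and the adult brain. Of the members placed here, miR-127 and miR-136 lie opposite to Rtl1, are fully complementary to its transcript and direct its cleavage, while loss of the miR-379 to miR-410 group in mice alters neonatal metabolism and anxiety-related behaviour.

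In the GENCODE annotation of GRCm38, which corresponds to the mm10 build of the submitters' processing notes, the precursors of the Rtl1/Rian group span chromosome 12 from 109585789 to 109618336 on the plus strand. Of these 9 precursors, 5 overlap an exon of Rtl1 on the opposite strand (miR-431, miR-433, miR-127, miR-434 and miR-136), 1 lies in an intron of Rian (miR-370), and 3 (miR-337, miR-540 and miR-665) overlap no other gene. The 26 precursors of the other group span 109709060 to 109743795, also on the plus strand. Only 10 of these lie within the annotated bounds of Mirg (109729764 to 109749460), 7 of them overlapping an exon. The other 16, from miR-379 to miR-539, lie upstream of the annotated start of Mirg and overlap no other gene.

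The mature sequences of the members that had a read in SDCSC exosomes are given first, because every later result rests on them. Sequences are those of RefSeq on GRCm38.p6, which held 37 of the 40 members, and the capitals mark the seed, bases 2 to 8 from the 5′ end, through which a miRNA chiefly recognises its targets.
mmu-miR-127-3p: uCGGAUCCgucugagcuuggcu
mmu-miR-136-3p: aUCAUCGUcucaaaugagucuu
mmu-miR-411-5p: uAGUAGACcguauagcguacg
mmu-miR-543-3p: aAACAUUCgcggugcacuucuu
mmu-miR-654-3p: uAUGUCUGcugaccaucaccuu
mmu-miR-381-3p: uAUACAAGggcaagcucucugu
mmu-miR-409-3p: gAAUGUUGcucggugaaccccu
mmu-miR-369-3p: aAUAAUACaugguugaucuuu
mmu-miR-410-3p: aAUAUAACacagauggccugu
The 37 members with a sequence carried 37 distinct seeds, so no seed was shared between them. Among other miRNAs, the seed of miR-410-3p also occurs in miR-344d-3p and miR-344e-3p, for which the parental library had 3 reads together and the SDCSC library 0. The seed of miR-411-5p also occurs in miR-7229-5p, which had no read.

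Some neighbours resemble the members that were read, and they are shown because reads of near-identical miRNAs can be assigned to the wrong one.
mmu-miR-300-3p: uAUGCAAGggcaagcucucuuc
mmu-miR-379-5p: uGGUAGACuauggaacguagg
mmu-miR-495-3p: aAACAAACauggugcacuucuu
Counted from 1 at the 5′ end, miR-300-3p differs from miR-381-3p at 3 of 22 bases, by A4G within the seed and by G21U and U22C at the 3′ end. Likewise, miR-379-5p matches miR-411-5p at 14 of 21 bases and differs in the seed by A2G. Finally, miR-495-3p matches miR-543-3p at 18 of 22 bases. In contrast to miR-381-3p, miR-300-3p had only 1 read, in parental exosomes, and miR-379-5p and miR-495-3p had none. Whether reads were shared between such pairs was not tested.

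The deposited values are RPM, the reads of a miRNA scaled to a fixed total of reads assigned to miRNAs. The smallest value above 0 was 27.31 RPM for parental exosomes and 217.77 RPM for SDCSC exosomes, and every value was a whole multiple of it, so reads could be recovered. With the highest entry of each name taken, reads summed to 32162 for parental and 3964 for SDCSC exosomes, the totals used here. A miRNA at the same share of both totals is therefore expected to have 8.11 parental reads for every SDCSC read. A count of 0 allows a share of up to 3 reads, that is 0.00933% of miRNA reads in parental and 0.0757% in SDCSC exosomes. All intervals are exact 95% intervals for counting error alone, as copies made by amplification do not represent separate molecules.

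The Dlk1-Dio3 miRNAs took a larger share of the miRNA reads in SDCSC exosomes than in parental exosomes. All members together had 81 reads in parental exosomes, 0.252% of the total (0.200 to 0.313%), and 60 reads in SDCSC exosomes, 1.51% (1.16 to 1.94%). At the parental share, 9.98 reads would have been expected in the SDCSC library. The ratio of the shares was 6.01 (4.23 to 8.50), or 2.59 on the log2 scale (2.08 to 3.09). Without library scaling, which leaves the difference in miRNA totals in place, the log2 ratio was -0.43. Whether these totals differed by sequencing depth or by the part of all reads that were miRNAs was not tested. In a bulk preparation, more vesicles carrying a miRNA and more copies per vesicle cannot be told apart. Both groups contributed. The Rtl1/Rian group went from 31 to 12 reads, that is from 0.0964% to 0.303%, a ratio of 3.14 (1.47 to 6.29). The miR-379 to miR-410 group went from 50 to 48 reads, from 0.155% to 1.21%, a ratio of 7.79 (5.13 to 11.8). No p is given for these sums, because the members were chosen with earlier results of these data known.

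**Figure D1:**
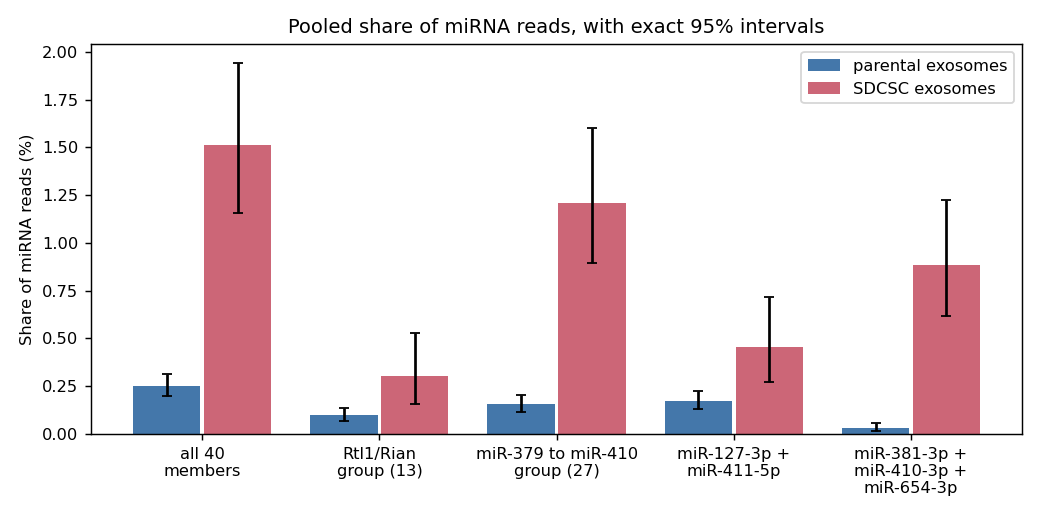
Share of miRNA reads (%, linear axis from 0) of all 40 members, of the Rtl1/Rian and miR-379 to miR-410 groups, and of pairs or triplets of members in 1 library of parental exosomes (blue) and 1 library of SDCSC exosomes (red). Bars are the shares and error bars their exact 95% intervals, with all members at 0.252% and 1.51%. The intervals do not overlap between the libraries for any set shown. This is a description only, as the pair and the triplet were formed after the values had been seen. The members were chosen with earlier results of these data known.

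Only a few members carried these reads. Of the 40 members, 12 had at least 1 read in the parental and 9 in the SDCSC library, 8 members had reads in both, and 27 had none in either library. With the parental library reduced to the SDCSC total, the expected number of members with a read was 4.58, below the 9 seen in SDCSC exosomes. Across all miRNAs the order was the opposite, with 181 expected and 124 seen. The detected members were led by miR-411-5p and miR-127-3p in parental exosomes, which held 67.9% of the member reads. In SDCSC exosomes miR-381-3p and miR-410-3p led, with 46.7%.

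**Figure D2:**
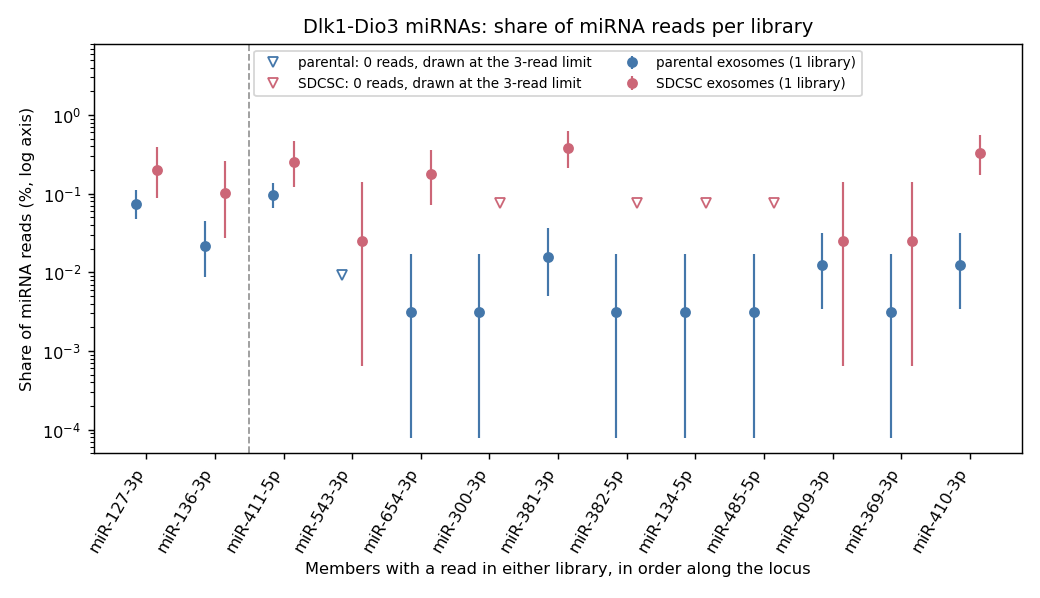
Share of miRNA reads (%, log axis) of the 13 members with a read in either library, ordered by their place along the locus, with the Rtl1/Rian group left of the dashed line. Points are shares in 1 library of parental (blue) or SDCSC exosomes (red), bars are exact 95% intervals, and open triangles mark 0 reads at the limit of 3 reads. The intervals of miR-654-3p, miR-381-3p and miR-410-3p are apart between the libraries. How many of all miRNAs have intervals that are apart was not counted.

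In the Rtl1/Rian group, reads came from 2 of the 13 members. The Rtl1-directed miR-127-3p had 24 reads in parental exosomes (655.47 RPM) and 8 in SDCSC exosomes (1742.16 RPM), where 2.96 were expected at the parental share. The log2 ratio of its shares was 1.44 (0.0708 to 2.64). The SDCSC library therefore had fewer reads but the higher share, and the interval of the ratio only just excluded equal shares. A two-sided Fisher's exact test of the reads, gave p = 0.0197, and after Benjamini-Hochberg adjustment across all 336 detected miRNAs an adjusted p = 0.118, so it was not called. Such a test sets one library against the other and says nothing of the spread between repeats of a condition.

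The second member was miR-136-3p, the partner strand of miR-136-5p. Its reads numbered 7 in the parental library (191.18 RPM) and 4 in the SDCSC library (871.08 RPM), giving a log2 ratio of 2.21 (-0.00686 to 4.19). The interval just included equal shares, and the adjusted p was 0.144 in the same Fisher's exact test. The other 11 members of the group had 0 reads in both libraries, namely miR-127-5p, miR-136-5p, both arms of miR-337 and of miR-434, miR-370-3p, miR-431-5p, miR-433-3p, miR-540-3p and miR-665-3p. Thus miR-370-3p, which lies alone in Rian, added nothing to the group, and its 2 detected members both lie opposite to Rtl1.

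In the miR-379 to miR-410 group, 3 members were called higher in SDCSC exosomes at an adjusted p under 0.05 in Fisher's exact test. That test covers counting error between single libraries only, and copies made by amplification are not separate molecules. The largest count was that of miR-381-3p, which had 5 parental reads (136.56 RPM) and 15 SDCSC reads (3266.55 RPM). Here the library with fewer miRNA reads in all held more reads of the member, where 0.616 were expected at the parental share. The log2 ratio was 4.61 (3.07 to 6.42), with an adjusted p = 9.18e-10 in Fisher's exact test. The last miRNA of the group, miR-410-3p, had 4 parental (109.24 RPM) and 13 SDCSC reads (2831.01 RPM), for a log2 ratio of 4.72 (3.03 to 6.79; adjusted p = 1.07e-08, Fisher's exact test). The third, miR-654-3p, had 1 parental (27.31 RPM) and 7 SDCSC reads (1524.39 RPM). Its log2 ratio of 5.83 is known only within 2.87 to 11.32, as it rests on a single parental read (adjusted p = 1.78e-05, Fisher's exact test).

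The most abundant member of parental exosomes behaved otherwise. The 5p arm of miR-411 had 31 parental (846.65 RPM) and 10 SDCSC reads (2177.70 RPM), where 3.82 were expected. Its log2 ratio was 1.39 (0.195 to 2.45), with p = 0.0115 and an adjusted p = 0.0757 in Fisher's exact test, so it missed the threshold over all miRNAs. Tested among only those 136 miRNAs whose reads summed to 10 or more, the adjusted p was 0.0319 for miR-411-5p and 0.0495 for miR-127-3p, so both calls changed with how many miRNAs were tested. That of miR-411-5p also changed with the totals used, as its adjusted p was 0.0426 in the same Fisher's exact test when the most abundant miRNA of each library was left out.

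The remaining reads of this group were single ones or nearly so. For miR-409-3p there were 4 parental reads and 1 SDCSC read, a log2 ratio of 1.02 (-4.60 to 4.36), and for miR-369-3p there was 1 read in each. A single SDCSC read was found for miR-543-3p, which had 0 in parental exosomes. A single parental read was found for each of miR-134-5p, known as a regulator of dendritic spine size in neurons, miR-300-3p, miR-382-5p and miR-485-5p. At that share 0.123 reads would be expected in the SDCSC library, so their 0 reads there show nothing about a difference. The other 16 members of the group had no read in either library, among them the 3 members of the miR-376 family (miR-376a-3p, miR-376b-3p and miR-376c-3p), miR-379-5p, miR-495-3p and miR-541-5p.

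The members were then set against the whole table. Of the 336 miRNAs with any read, 17 (5.06%) were called higher and 31 (9.23%) lower in SDCSC exosomes at an adjusted p under 0.05 in Fisher's exact test. Of the 13 members with a read, 3 were called higher and 0 lower. At an unadjusted p under 0.05 in the same test these counts were 6 and 0. No share over all miRNAs was taken at that threshold, so these 2 counts cannot be set against the whole table. No member had more than 31 parental reads. Even 31 parental and 0 SDCSC reads, as pooled for the neuronal markers below, did not exclude equal shares. A call of lower was thus hardly open to the members, and neither count of 0 lower is support. Of the 136 miRNAs whose reads summed to 10 or more, the share in SDCSC exosomes was up by 1.5-fold or more for 18.4% and down by as much for 61%, with a median log2 ratio of -1.50. All 5 members that passed this filter were at least 1.5-fold higher, with a median of 2.21. However, miR-381-3p, miR-410-3p and miR-136-3p passed only with the help of their SDCSC reads, so the count of 5 is no support. A filter on parental reads alone does not use the SDCSC reads, but it has other limits, given below. Of the 215 miRNAs with at least 3 parental reads, 15.3% were up by 1.5-fold or more and 47.4% down by as much, while 110 had 0 SDCSC reads. The 6 members with at least 3 parental reads (miR-127-3p, miR-136-3p, miR-381-3p, miR-409-3p, miR-410-3p and miR-411-5p) were all at least 1.5-fold higher and none was at 0. For miR-409-3p this side was set by 1 read. At the 4 or 5 parental reads of miR-381-3p, miR-409-3p and miR-410-3p, 1 SDCSC read already counts as higher. With 0 SDCSC reads they could not have counted as lower. As the members were also chosen with earlier results of these data known, the count of 6 is no support either.

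**Figure D3:**
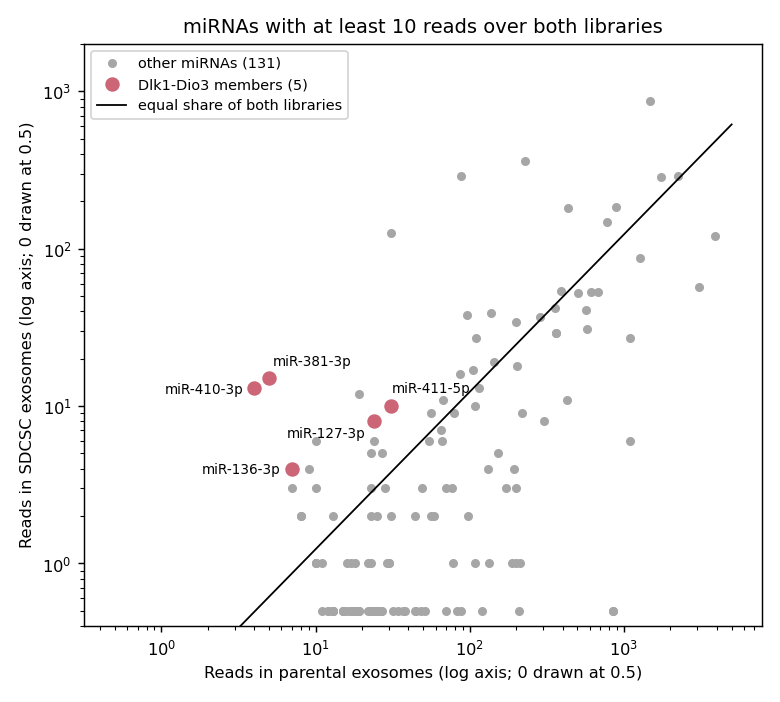
Reads in SDCSC against parental exosomes (both log axes, 0 drawn at 0.5) for the 136 miRNAs whose reads summed to 10 or more, 1 point per miRNA. The line marks equal shares of both libraries, above which the 5 Dlk1-Dio3 members shown (red) lie, of which miR-381-3p, miR-410-3p and miR-136-3p reached 10 reads only with their SDCSC reads.

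The balance between the groups was then examined within the member reads, which does not depend on library scaling. The Rtl1/Rian group held 31 of 81 member reads in parental exosomes, 38.3% (27.7 to 49.7%), and 12 of 60 in SDCSC exosomes, 20% (10.8 to 32.3%). The odds ratio was 0.406 (0.169 to 0.926), so the smaller part of the Rtl1/Rian group in SDCSC exosomes lay only just outside counting error. Adding the other miRNAs of the locus, listed below, gave 37.2% and 20.6%. The balance rested on few members. Without miR-411-5p, the Rtl1/Rian group made up 62.0% of parental and 24.0% of SDCSC member reads. Without both miR-411-5p and miR-127-3p it made up 26.9% and 9.52%.

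The members did not divide cleanly by group. Between miR-127-3p of the Rtl1/Rian group and miR-411-5p of the other, the balance was nearly the same in both libraries, with 24 reads of miR-127-3p among 55 in parental and 8 among 18 in SDCSC exosomes, an odds ratio of 1.03 (0.303 to 3.43). This interval is wide and does not show that they moved alike. Within the miR-379 to miR-410 group the leading member changed. The share held by miR-411-5p was 62.0% (47.2 to 75.3%) of the group's reads in parental and 20.8% (10.5 to 35.0%) in SDCSC exosomes, whereas that of miR-381-3p, miR-410-3p and miR-654-3p together was 20% (10.0 to 33.7%) and 72.9% (58.2 to 84.7%). Set against miR-127-3p and miR-411-5p, these 3 members gained with an odds ratio of 10.4 (4.11 to 28.7). As these sets were formed after the values had been seen, the odds ratios are descriptions with no test.

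**Figure D4:**
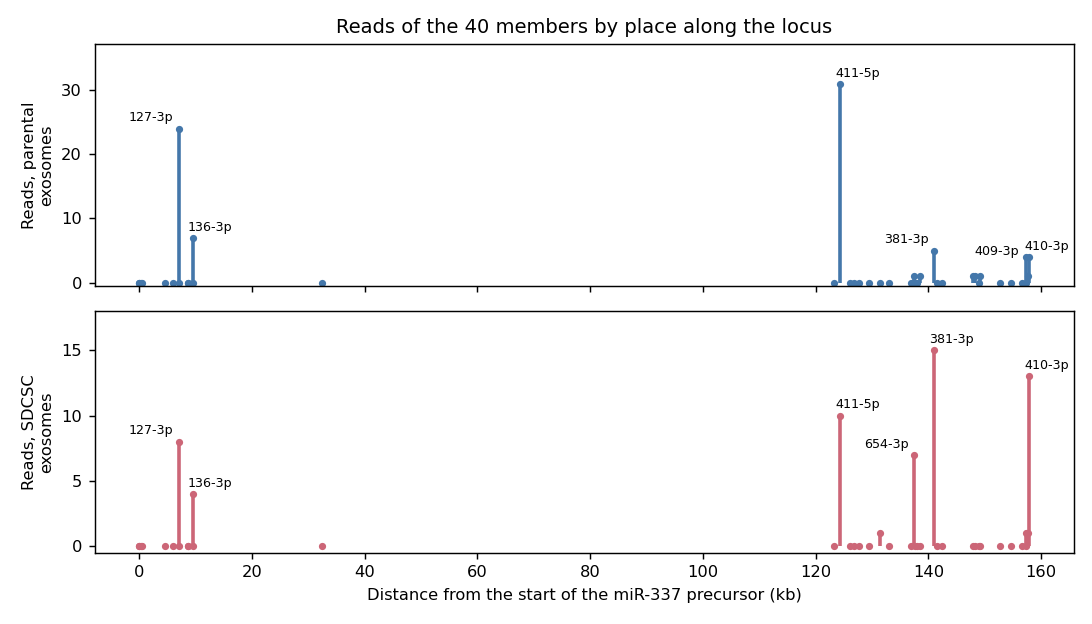
Reads of each of the 40 members in parental (upper panel) and SDCSC exosomes (lower panel, with its own scale) against the distance of the precursor from the start of the miR-337 precursor (kb); both arms of a precursor share a position. The Rtl1/Rian group lies at the left and the miR-379 to miR-410 group at the right, where miR-411-5p leads in parental exosomes with 31 reads and miR-381-3p in SDCSC exosomes with 15.

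By place along the locus, the miR-411 precursor starts 124.39 kb, miR-654 137.43 kb, miR-381 141.03 kb and miR-410 157.93 kb downstream of that of miR-337. The precursors of miR-654 and miR-381 lie before the annotated start of Mirg, and that of miR-410 overlaps a Mirg exon. Those of the Rtl1-directed miRNAs start at 7.06 kb (miR-127) and 9.54 kb (miR-136).

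For the 5 hairpins shown here, all reads fell on 1 arm, whereas miR-369 had 1 parental read on either arm. The precursors are given with the counted mature arm in capitals.
miR-127 (chr12:109592846-109592915, plus strand): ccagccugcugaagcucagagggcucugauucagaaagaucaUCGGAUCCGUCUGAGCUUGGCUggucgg
miR-411 (chr12:109710175-109710256, plus strand): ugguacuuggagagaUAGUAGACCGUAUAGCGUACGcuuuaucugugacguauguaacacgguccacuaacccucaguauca
miR-381 (chr12:109726822-109726896, plus strand): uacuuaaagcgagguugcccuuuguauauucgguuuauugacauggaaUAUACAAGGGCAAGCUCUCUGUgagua
miR-410 (chr12:109743715-109743795, plus strand): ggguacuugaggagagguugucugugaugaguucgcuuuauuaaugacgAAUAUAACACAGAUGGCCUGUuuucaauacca
miR-654 (chr12:109723218-109723301, plus strand): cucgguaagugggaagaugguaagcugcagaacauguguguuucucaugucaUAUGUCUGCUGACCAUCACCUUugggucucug
All 24 parental and 8 SDCSC reads of miR-127 were of the 3p arm, and the 0 reads of the 5p arm allow it a share of up to 12.5% and 37.5% of the hairpin's reads. Conversely, all 31 and 10 reads of miR-411 were of the 5p arm, with a limit of 9.68% and 30% for the 3p arm. Reads of miR-381, miR-410 and miR-654 were of the 3p arm throughout. For miR-381 the 15 SDCSC reads limit the 5p arm to 20%. Of the 5 precursors with both arms among the members, miR-127, miR-136 and miR-409 had 3p reads only, and miR-337 and miR-434 had none.

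Pooled over the members, the 3p arms held 47 of 81 reads in parental exosomes, 58.0% (46.5 to 68.9%), and 50 of 60 in SDCSC exosomes, 83.3% (71.5 to 91.7%), with an odds ratio of 3.58 (1.52 to 9.08). In the Rtl1/Rian group all 31 and 12 reads were 3p, so the difference lay in the miR-379 to miR-410 group, where the 3p share was 32.0% and 79.2%. It rested on miR-411-5p. Without this miRNA, 3p arms made up 47 of 50 parental reads, 94.0% (83.5 to 98.7%), and 50 of 50 SDCSC reads. No precursor with at least 2 reads in each library changed its arm.

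The other mature miRNAs of the locus, 73 names that are not among the members, were nearly silent. Together they had 5 parental and 3 SDCSC reads, with a log2 ratio of 2.28 (-0.404 to 4.65), which did not exclude equal shares. No read was found for 68 of them. A single read in each library was found for miR-412-5p and for miR-493-5p, which lies beside miR-337. In SDCSC exosomes alone 1 read was found for miR-379-3p, although miR-379-5p had none. In parental exosomes alone 2 reads were found for miR-299a-3p and 1 for miR-369-5p.

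Marker miRNAs of cell types were also compared between the libraries. The 9 miRNAs of the colonic epithelium (miR-192, miR-194, miR-215, miR-375, miR-141 and the miR-200 family with miR-429) had 55 parental and 2 SDCSC reads, where 6.78 were expected. The ratio of 0.295 (0.0349 to 1.12) did not exclude equal shares. This list went both ways. Reads of miR-192-5p (48), miR-194-5p (5) and miR-215-5p (2) were parental only. In contrast, miR-200b-3p and miR-429-3p had 1 SDCSC read each and 0 parental reads. At 0 in both were miR-200a-3p, miR-200c-3p, miR-141-3p and miR-375-3p. Markers of the labelled tissue were thus at or near 0 in SDCSC exosomes, and only 3 of the 9 had a parental read. The 5 mesenchymal markers, led by miR-143-3p, were at 4.17% and 5.58% of miRNA reads, a ratio of 1.34 (1.15 to 1.54). These markers went both ways, so the list did not rise as a set. The share was higher in SDCSC exosomes for miR-143-3p (888 parental and 185 SDCSC reads) and miR-199a-5p (23 and 5). It was lower for miR-199a-3p (365 and 29), miR-214-3p (31 and 2) and miR-145a-5p (34 and 0). The 8 blood-associated markers, among them the erythroid miR-486 and miR-451a, fell from 2039 reads, 6.34% (6.08 to 6.61%), to 1 read. Of the parental reads, 856 were listed for miR-486a-5p and 853 for miR-486b-5p. Whether the same reads were counted under both names was not tested. If so, the 2039 and the 6.34% are too high. With the blood list left out of the totals, the log2 ratio of the members was 2.49, that of the Rtl1/Rian group 1.56 and that of the miR-379 to miR-410 group 2.87. Of 5 neuronal markers, miR-9-5p and miR-128-3p had together 31 parental and 0 SDCSC reads, where 3.82 were expected, which did not exclude equal shares either, and miR-124-3p, miR-138-5p and miR-219a-5p had none in either library. The part of these lists in the higher share of the Dlk1-Dio3 miRNAs was not tested.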

How the data were processed

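Exosomal RNA was prepared with the TruSeq Small RNA kit from 18 to 40 nt fragments and sequenced on an Illumina NextSeq instrument. The authors clipped adapters with Trimmomatic, discarded reads under 18 nt and deposited an RPM value for each mature miRNA at each precursor. The build was mm10 per the labels. For the exosomal small RNA content, the study's methods name ncPRO-seq with RepeatMasker and Rfam features and a normalization for reads shared among features. Whether the deposited miRNA values were made in this way, and the miRBase release, are not given in the sources used here.

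Values divided by the smallest value above 0 gave whole reads for 100% of values (within 0.02 reads). All entries summed to 36615 and 4592 reads in parental and SDCSC exosomes. The highest entry of each name was used, which left 32162 and 3964. No member was listed at more than 1 precursor.

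Ratios are SDCSC over parental shares of these totals, with 0.5 reads added where 1 library had 0. Intervals are exact (binomial, Poisson or conditional). With 1 library per condition no log-scale test was possible, and Fisher's exact test (two-sided) was run on the recovered reads, and after Benjamini-Hochberg adjustment it called 48 of 336 miRNAs (14.3%). The reduction of the parental library is the exact hypergeometric expectation. Named are members with at least 10 reads over both libraries, any SDCSC read or both arms listed, with others of the locus by the same limits. Other members are named so that every member is accounted for, after their values were seen. Members and lists were chosen with earlier results of these data known. Alternatives were scaling (TMM of edgeR 4.0.16 in R 4.3.3, deposited RPM, totals without the most abundant miRNA or, added later, the blood list, and none), sums of entries, filters, pseudocounts, a 2-fold threshold and left-out members. Scripts (Python 3.11.15, scipy 1.17.1, pandas 2.3.3, numpy 2.4.6) were tested on simulated data. Precursor positions are from GENCODE M21 and mature sequences from RefSeq, both on GRCm38.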

Additional observations from a re-analysis of the deposited data

How the results depend on the processing

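No paired analysis was possible because only 1 library per condition was sequenced. Of 61 alternative values, 48 kept their direction and stayed within the interval, or within 1.5 times the count, of the value reported. Some of these could not have moved. Leaving out miR-370-3p changed nothing, as it had 0 reads in both libraries. Summing entries could not change the split between the groups, as no member was listed at more than 1 precursor. Relative to the miRNA totals, log2 ratios moved by -0.0602 under TMM and by -0.0251 on the deposited RPM scale. They moved by 0.167 when the most abundant miRNA was left out of the totals. With no library scaling, which ignores the larger miRNA total of the parental library, they moved by -3.02. Under that last setting the log2 ratio became -0.43 for all members, -1.37 for the Rtl1/Rian group and -0.059 for the miR-379 to miR-410 group. Leaving out the most abundant member, miR-411-5p, gave a log2 ratio of 4.02 for its group, 62.0% of parental member reads in the Rtl1/Rian group, and 3p shares of 94.0% and 100%. Without miR-127-3p as well, a choice made after seeing the data, the Rtl1/Rian group held 26.9% and 9.52%. A threshold of at least 3 reads left 6 members in the parental library and 6 in the SDCSC library. The 4.58 members expected from the parental library at the SDCSC total are those with at least 1 read. A read in either library gave 13 members past 1.5-fold, 5 of them through the added 0.5 reads, and at least 30 reads gave 2. With the added 0.5 reads, any miRNA with 1 parental and 0 SDCSC reads counts as higher, as 4 members did. The count of 13 is therefore no support, and no share over all miRNAs was taken under either filter. The 3964 SDCSC reads limit all members with few parental reads.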
